A study of Homo sapiens with 42 samples.

Results

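The genes that supply amino acids and load them onto tRNA were followed through senescence and through depletion of COPB2 in human lung fibroblasts. There are 46 such genes among the 28266 symbols of the count table: 26 that were listed by name (9 of serine, glycine and folate metabolism, 2 of transsulfuration, 6 of asparagine, proline and transamination, and 9 transporters) and the 20 cytosolic aminoacyl-tRNA synthetases, taken by their symbols. The rule that picks them names genes and sets no threshold on a measured value. All 46 were in the table and 45 passed the filter on low counts in the fits used here. CBS did not pass, with 0 to 3 counts per library, and CBSL, its near-identical copy, was listed at 0 in every library.

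IMR90 is an established strain of human lung fibroblasts. Its derivative IMR90 ER:RAS expresses oncogenic RAS joined to an oestrogen receptor, so that 4-hydroxytamoxifen (4OHT) switches RAS signalling on and drives oncogene-induced senescence (OIS). ER:RAS cells received DMSO or 4OHT at 100 nM, and IMR90 cells received DMSO or bleomycin, a DNA-damaging drug, at 50 µg/ml for 24 h. After 7 days of culture, doxycycline at 1 µg/ml was given for 72 h to all cells, controls included, to induce either a control hairpin or 1 of 2 hairpins that target COPB2, and poly(A) RNA was collected at day 10. COPB2 is part of coatomer, the COPI coat of vesicles that return from the Golgi to the endoplasmic reticulum. This gave 12 groups and 42 libraries: 3 libraries in each of the 6 ER:RAS groups (DMSO or 4OHT, each with the control shRNA, shRNA 1 or shRNA 2) and 4 in each of the 6 IMR90 groups (DMSO or bleomycin, each with the same 3 shRNAs). Bleomycin was not given to ER:RAS cells, nor 4OHT to parental IMR90 cells, so the inducer of senescence and the cell line cannot be told apart. The labels do not say whether libraries of a group came from separate cultures, while the study describes the samples of its COPB2 knockdown comparisons in senescent cells as independent experiments. It gives n = 3 for these comparisons, after bleomycin too, where each group here has 4 libraries. For the DMSO groups no source used here names independent experiments, and p-values that rest on these groups may measure a technical spread. In bulk RNA, fewer cells of a type and less RNA per cell cannot be told apart.

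Cells make serine from glycolytic 3-phosphoglycerate through PHGDH, PSAT1 and PSPH. Serine hydroxymethyltransferases then pass a carbon unit from serine to folate, which the MTHFD enzymes process in the cytosol and mitochondria. Transsulfuration turns homocysteine into cysteine, and transporters of the SLC families bring in the amino acids that are not made. Each synthetase loads its amino acid onto the matching tRNA. Many of these genes are known targets of ATF4, a transcription factor whose translation rises when eIF2α is phosphorylated, as happens when amino acids run short or unfolded proteins build up in the endoplasmic reticulum. ATF4 dimerizes with C/EBP proteins and binds a composite element whose core reads TGATGNAA, in which N is any base.

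That core was searched on both strands of the RefSeq promoter windows, 300 bases from 250 before to 50 after a gene start (GRCh38.p14). Of the 46 genes, 36 matched a window by symbol, and 16 of these 36 (44.4%) held the core. Among all 27305 symbols with a window, 1217 (4.46%) held it. Holders were 7 of 16 cytosolic synthetases with a window and, among the mitochondrial synthetases, 1 of 14. A match is a description of letters and not a binding site. Some genes have more than 1 annotated start and so more than 1 window. The sequences shown are those of the 11 holders that passed the test in any comparison below, each written 5′ to 3′ on the strand that carries the core, with the core in capitals and up to 10 bases on either side.

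SLC1A4: cggctggagaTGATGCAAacgggagccg
CARS1: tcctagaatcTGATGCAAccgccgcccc
MARS1: aatccctcgcTGATGCAAccggaaccgg
IARS1: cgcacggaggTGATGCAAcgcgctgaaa
AARS1: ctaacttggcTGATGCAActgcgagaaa
GOT1: ctgccgagaaTGATGCAAccaatgcaat
MTHFD1L: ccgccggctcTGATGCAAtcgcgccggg
GARS1: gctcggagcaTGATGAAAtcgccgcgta
SLC7A1: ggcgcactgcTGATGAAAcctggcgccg
ASNS: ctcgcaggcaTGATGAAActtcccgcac
SLC3A2: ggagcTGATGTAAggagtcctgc

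The stretches printed lie at chr2:64989382-64989409 (minus strand) for SLC1A4, chr11:3057408-3057435 (plus) for CARS1, chr12:57488054-57488081 (minus) for MARS1, chr9:92293693-92293720 (plus) for IARS1, chr16:70289676-70289703 (plus) for AARS1, chr10:99430805-99430832 (plus) for GOT1, chr6:150866347-150866374 (plus) for MTHFD1L, chr7:30594835-30594862 (minus) for GARS1, chr13:29595664-29595691 (minus) for SLC7A1, chr7:97872459-97872486 (minus) for ASNS and chr11:62881726-62881748 (minus) for SLC3A2. The first base of the core on the gene strand was 7 bases before the start for SLC1A4, 2 for CARS1, 4 for MARS1 and 13 for IARS1. It lay 33 bases before the start for GARS1, 68 for ASNS, 129 for MTHFD1L, 187 for AARS1 and 198 for GOT1. In SLC7A1 and SLC3A2 the core lay within the transcript, at base 8 and base 38. The other 5 holders were BCAT1, NARS1, TARS1, SLC1A5 and SLC38A1. CTH, MTHFD2, PSAT1, SLC6A9 and SLC7A5, which are described below, had no match in the window, and SLC7A11, YARS1, SHMT2, GPT2, PSPH, PYCR1, ALDH1L2, VARS1 and LARS1 have no entry in the promoter table. Among the genes that carry the results, CTH lies at chr1:70411268-70439851, PHGDH at chr1:119711934-119744215, SLC7A11 at chr4:138164097-138242349, SLC1A4 at chr2:64988479-65023865 and MTHFD2 at chr2:74198615-74217565 (RefSeq genes, GRCh38.p14).

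Total counts ran from 13148194 to 23597310 per library. COPB2 stood at 340.4 ± 79.1, 479 ± 131, 361 ± 50.7 and 451 ± 78.1 CPM, the usual library-size-scaled count (mean ± SD, n = 3, 3, 4 and 4) with the control shRNA in ER:RAS DMSO, OIS, IMR90 DMSO and bleomycin cells, and at group means of 45.7 to 113 with the shRNAs against it. The fibroblast markers COL1A1 and THY1 were abundant, and the markers of epithelial cells (EPCAM, CDH1), endothelial cells (PECAM1, CDH5) and leukocytes (PTPRC) reached at most 49 counts in a library. PECAM1 had 0 to 3 counts in ER:RAS DMSO and 28 to 46 in OIS libraries, and CDH5 0 and 19 to 49. After bleomycin, PECAM1 had 7 to 23 counts, CDH5 1 to 7 and PTPRC 0 to 36. The part of other cells in the results was not tested. Libraries of a group differed in the balance of GC-rich and GC-poor transcripts: the mean log2 deviation of the GC-richest 20% of genes minus that of the GC-poorest 20% was 1.39, -0.18 and -1.08 in replicates 1, 2 and 3 of OIS with the control shRNA, and -0.39, 1.201 and -1.04 in the matching DMSO libraries.

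The first comparison asked which of these genes differ between senescent and non-senescent cells that carry the control shRNA. In OIS, CTH, which releases cysteine from cystathionine, rose most, the leucine transporter SLC7A5 and 6 synthetases rose with it, and the glycine transporter SLC6A9 and the cytosolic serine hydroxymethyltransferase SHMT1 fell. Of the 45 genes tested, 11 rose and 3 fell (edgeR's quasi-likelihood test with Benjamini-Hochberg adjustment over all genes, called under 0.05). Among all 14297 genes tested in the ER:RAS libraries, 35.7% were called, 15.5% higher and 20.2% lower. The median log2 fold change was 0.12 over the 45 genes and -0.08 over all genes. With DESeq2 size factors the median of all genes moved to 0.04, and 13 of the 45 rose and 1 fell. When the fit held the 6 compared libraries alone, 3 of the 45 were called.

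The 20 cytosolic synthetases held 6 genes that rose in OIS and 1 that fell, with a median log2 fold change of 0.53 and 17 of 20 above 0. FARSA, the catalytic subunit of phenylalanyl-tRNA synthetase, was at 93.7, 152 and 87.8 CPM in the DMSO libraries (replicates 1 to 3, here and throughout) and 445, 253 and 132 in OIS, a log2 fold change of 1.21 ± 0.39 (± SE of the fit; adjusted p = 0.0243, edgeR). OIS replicate 3 lay below the highest DMSO library. The order of the OIS libraries was that of their GC balance given above, and with counts corrected for GC content and length the FARSA value was 1.01. YARS1, which loads tyrosine, was at 167, 236 and 144 CPM with DMSO and 614, 391 and 223 in OIS (1.06 ± 0.28; edgeR adjusted p = 0.00694), and only OIS replicate 3 lay inside the DMSO range. HARS1 (1.05 ± 0.27), CARS1 (1.05 ± 0.26), MARS1 (0.80 ± 0.25) and GARS1 (0.53 ± 0.18) rose as well, with edgeR adjusted p-values from 0.00554 to 0.0304. WARS1, which loads tryptophan and is also an interferon-responsive gene, went the other way, from 398, 572 and 286 CPM to 328, 289 and 194 (-0.72 ± 0.22; edgeR adjusted p = 0.0166). DMSO replicate 3 of WARS1 lay below OIS replicates 1 and 2. Some of these calls turned on single libraries: FARSA, MARS1 and GARS1 lost theirs without replicate 1 of either group, FARSA and MARS1 also without DMSO replicate 3, and GARS1 also without DMSO replicate 2 and with the GC and length correction, while those of YARS1, HARS1 and CARS1 stood whichever library was left out. The call of WARS1 ended without DMSO replicate 1 or 2 or OIS replicate 2 or 3, and with DESeq2 size factors.

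Outside the synthetases, CTH gave the clearest separation. It was at 2.95, 3.48 and 2.74 CPM with DMSO and 18.8, 19.3 and 21.03 in OIS, with every OIS library far above every DMSO library, and its log2 fold change was 2.59 ± 0.25 (edgeR adjusted p = 1.28e-06). SLC7A5, the light chain of a leucine and large neutral amino acid exchanger, went from 45.4, 58.3 and 42.04 to 184, 138 and 78.9 CPM (1.35 ± 0.22; edgeR adjusted p = 0.000210), without overlap. SLC3A2, the heavy chain that SLC7A5 pairs with, gave -0.09 ± 0.34 and was not called. SLC7A1, which carries arginine and lysine (0.97 ± 0.26), and the transaminases GOT1 (0.85 ± 0.27) and GPT2 (0.79 ± 0.17), which exchange amino groups between glutamate and oxaloacetate or pyruvate, rose too, with edgeR adjusted p-values of 0.00738, 0.0219 and 0.00220. The GOT1 call ended without replicate 1 of either group or DMSO replicate 3.

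SLC6A9 fell from 22.4, 30.02 and 14.9 CPM to 8.39, 6.87 and 2.41 in OIS (-2.04 ± 0.39; edgeR adjusted p = 0.000719), and the groups did not overlap. SHMT1 fell from 6.32, 8.11 and 4.86 to 4.06, 2.05 and 1.77 CPM (-1.40 ± 0.47; edgeR adjusted p = 0.0300), also without overlap, and that call ended without DMSO replicate 1 or 2, without OIS replicate 2 or 3, and with DESeq2 size factors. None of the other 8 serine, glycine and folate genes was called, and the median of the 9 was -0.35. PHGDH and PSAT1 varied widely between the OIS libraries. PHGDH was at 160.4, 73.8 and 20.3 CPM there against 137, 195 and 109 with DMSO, and PSAT1 at 84.8, 55.3 and 14.4 against 59.3, 57.1 and 58.2. In replicate 3 of OIS, both lay below every DMSO library, and in replicate 1 neither did. As for FARSA, the OIS libraries of PHGDH, PSAT1, YARS1, WARS1, SLC7A5, SLC6A9 and SHMT1 were in the order of their GC balance. Those of CTH were in the reverse order. Without OIS replicate 1, PHGDH was called lower, at -1.68.

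After bleomycin, 4 genes of serine, glycine and folate metabolism, 2 synthetases and the transporter SLC6A9 fell. PHGDH, the enzyme that commits carbon to serine, fell most, and SLC7A11, the cystine transporter, rose most. Of the 45 genes, 7 rose and 7 fell, against 31.2% of all 14783 genes tested in the IMR90 libraries (15.4% higher and 15.8% lower). Medians were -0.01 for the 45 genes and -0.01 for all genes.

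PHGDH was at 226, 117, 135 and 115 CPM with DMSO (replicates 1 to 4) and 23.5, 52.96, 18.7 and 34.05 after bleomycin, a log2 fold change of -2.22 ± 0.29 (edgeR adjusted p = 6.11e-06). All DMSO libraries lay far above all bleomycin libraries. SHMT1 went from 7.60, 5.50, 4.79 and 5.32 to 2.73, 4.36, 2.41 and 2.75 CPM without overlap (-0.95 ± 0.27; edgeR adjusted p = 0.0106). SHMT2, the mitochondrial counterpart of SHMT1 (-0.64 ± 0.24), and MTHFD1L, which releases formate from mitochondrial folate (-0.65 ± 0.13), fell as well (edgeR adjusted p = 0.0432 and 0.000431), so 4 of the 9 genes of this group fell, with a median of -0.64. PSAT1 (-0.43), PSPH (-0.06) and MTHFD2 (-0.10), the mitochondrial folate dehydrogenase, were not called.

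SLC7A11 was at 8.73, 17.4, 33.9 and 15.6 CPM with DMSO and 84.03, 23.7, 132 and 115 after bleomycin (2.19 ± 0.56; edgeR adjusted p = 0.00430). Bleomycin replicate 2, the lowest, lay below DMSO replicate 3, the highest, and the other 3 bleomycin libraries were above all DMSO libraries. In both groups the order of the SLC7A11 values was the reverse of the GC balance of the libraries. That balance was 1.15, -0.21, -0.55 and -0.09 with DMSO and 0.25, 0.98, -0.59 and -0.48 after bleomycin. The SLC7A11 call stood with the GC and length correction. SLC3A2, which pairs with SLC7A11 as well as SLC7A5, rose by 0.60 (SE 0.20; edgeR adjusted p = 0.0227). SLC6A9 fell from 41.8, 23.4, 21.5 and 28.7 to 8.18, 12.3, 6.38 and 10.4 CPM without overlap (-1.65 ± 0.24; edgeR adjusted p = 1.61e-05). CTH went from 2.93, 1.97, 2.49 and 2.37 to 3.35, 3.50, 3.33 and 5.03 CPM (0.61 ± 0.23; edgeR adjusted p = 0.0476), again without overlap. The CTH call is close to the threshold, and leaving out any of 6 of the 8 libraries (bleomycin replicates 1, 2 and 4 and DMSO replicates 2, 3 and 4) ended it.

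Among the synthetases, 4 rose after bleomycin (FARSA, FARSB, IARS1 and HARS1) and 2 fell (QARS1 and AARS1), with a median of 0.14. FARSB, the second subunit of phenylalanyl-tRNA synthetase, was at 39.8, 32.4, 34.04 and 34.8 CPM with DMSO and 53.4, 64.6, 61.04 and 51.6 after bleomycin (0.68 ± 0.11; edgeR adjusted p = 8.72e-05), with no overlap. With the GC and length correction its call was lost, at an adjusted p of 0.0569. FARSA went from 102, 61.2, 60.1 and 63.9 to 135, 139.7, 108 and 99.1 CPM (0.72 ± 0.22; edgeR adjusted p = 0.0136), with DMSO replicate 1 above bleomycin replicate 4. QARS1, which loads glutamine, fell from 486, 293, 249.6 and 316 to 170.4, 218, 146 and 166 CPM (-0.97 ± 0.22; edgeR adjusted p = 0.00150), without overlap. For IARS1 (0.60 ± 0.15), HARS1 (0.43 ± 0.15) and AARS1 (-0.54 ± 0.16) the edgeR adjusted p-values were 0.00474, 0.0344 and 0.0135. Calls that ended when a library was left out were those of HARS1 (6 of 8 libraries), SHMT2 (5 of 8), SLC3A2 (4 of 8) and AARS1 (3 of 8), and without bleomycin replicate 1 the 14 calls became 9.

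**Figure D1:**
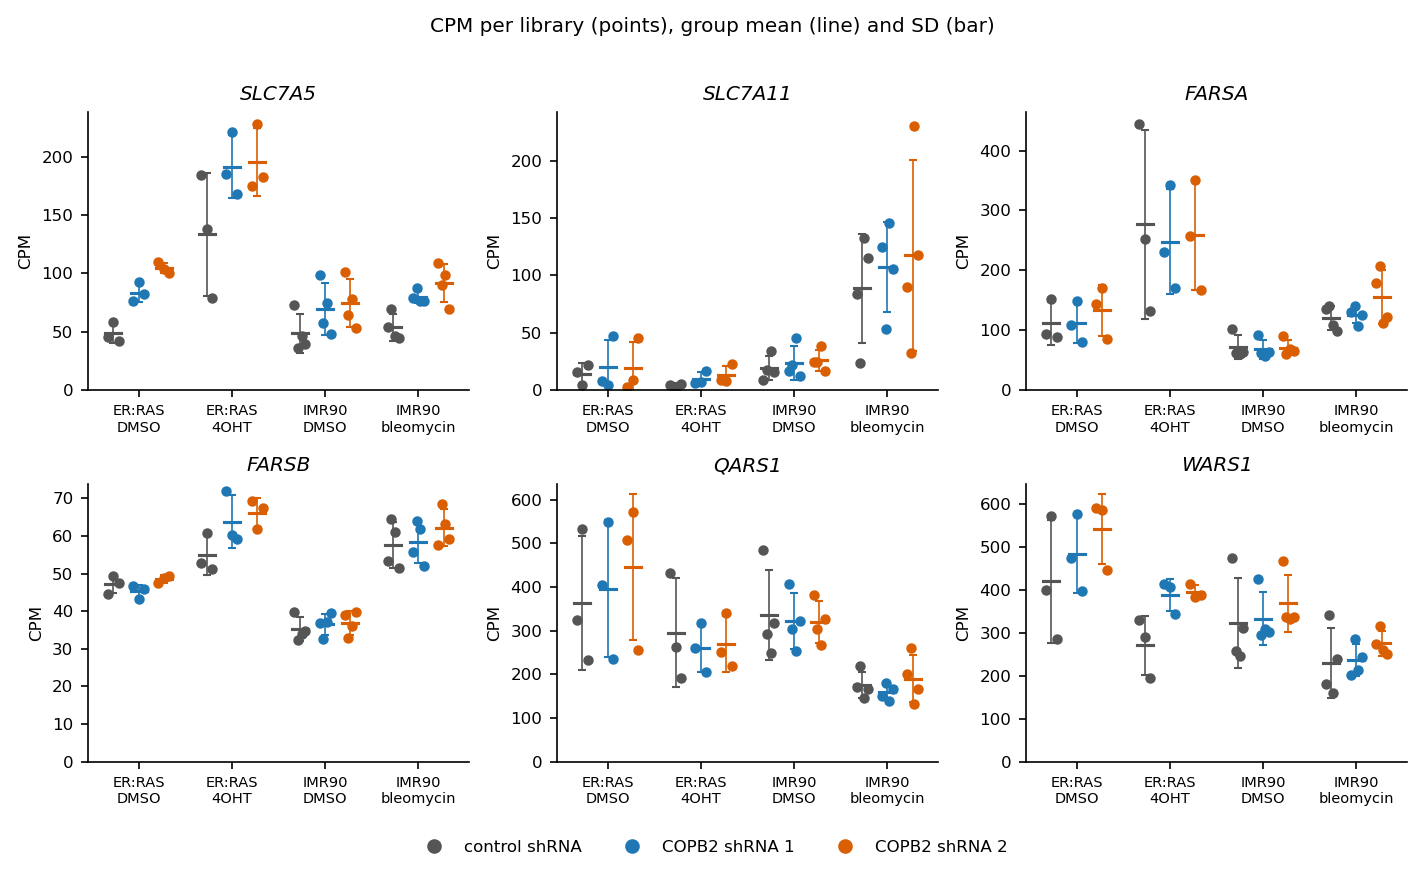
CPM of 6 genes in each of the 42 libraries (points; y axis, from 0), by cell line and treatment (x axis) and shRNA (colour), with group means (lines) and SDs (bars). SLC7A5 and FARSA stand highest in 4OHT-treated ER:RAS cells, SLC7A11 in bleomycin-treated IMR90 cells, and QARS1 in bleomycin-treated control cells sits at 146 to 218 CPM against 249.6 to 486 with DMSO.

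Whether the effect of senescence on a gene differed between the models was tested as a difference of differences in the fit of all 42 libraries. It differed for 9 of 45 genes, against 20.3% of all 15299 genes tested. CTH (2.04 ± 0.32 for OIS minus bleomycin, log2; edgeR adjusted p = 1.09e-05), SLC7A5 (1.32 ± 0.36; 0.00737), CARS1 (1.08 ± 0.32; 0.0157), GPT2 (1.00 ± 0.25; 0.00371), YARS1 (0.98 ± 0.36; 0.0472) and MARS1 (0.85 ± 0.31; 0.0464) had the higher effect in OIS. SLC7A11 (-3.99 ± 1.11; 0.00894) and FARSB (-0.49 ± 0.17; 0.0348) had the lower. For SLC7A11 the effects pointed in opposite directions, -1.88 ± 1.03 in OIS, which was not called (edgeR adjusted p = 0.179), and 2.19 ± 0.56 after bleomycin. The ninth gene was asparagine synthetase, ASNS (2.65 ± 0.81; edgeR adjusted p = 0.0164), which had only 1 to 44 counts per library and shares 76325 bases with the read-through gene CZ1P-ASNS (0 to 16 counts). How reads on both were counted is not stated, so values for ASNS are uncertain. PHGDH (1.40 ± 0.57; edgeR adjusted p = 0.0782) did not pass, but was called with DESeq2's Wald test, with the GC and length correction and with the replicate number as a block. Without OIS replicate 1, 5 genes passed in place of 9, and CTH, GPT2, SLC7A5 and SLC7A11 passed whichever library was left out. SLC6A9 fell in both models by amounts that were not shown to differ (-0.31 ± 0.44; edgeR adjusted p = 0.716).

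**Figure D2:**
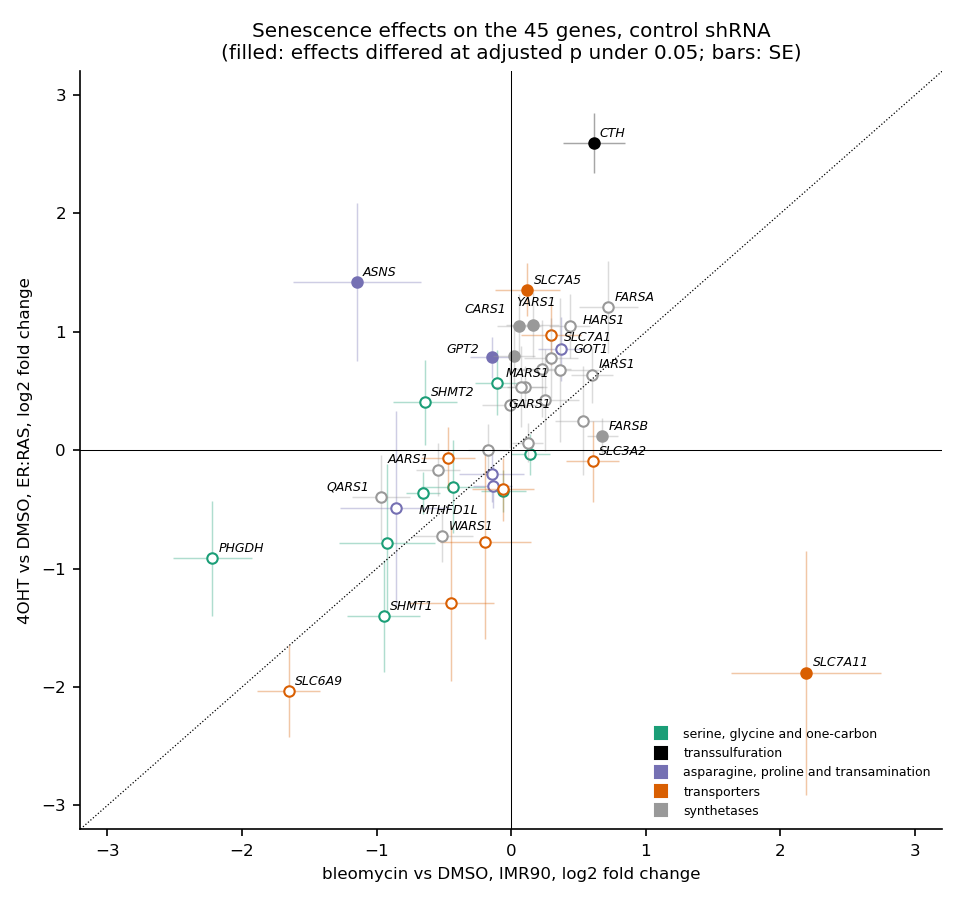
Log2 fold change of the 45 genes in OIS (y axis) against that after bleomycin (x axis), both with the control shRNA and coloured by role, bars being SEs. Filled points are the 9 genes whose effects differed between the models, with CTH and ASNS above the dotted line of equal effects and SLC7A11 far below it.

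The second comparison asked how these genes respond when COPB2 is depleted. The direction was upward for most of them in each of the 4 cell states, while few single genes passed the test over all genes. In OIS, 35 of 45 genes had a positive log2 fold change (mean of both shRNAs against the control shRNA), with a median of 0.32 against -0.08 for all genes, of which 38.9% were positive. In bleomycin-treated cells 40 of 45 were positive, with a median of 0.31 against 0.02 and 54.2% positive. Among non-senescent cells, 36 of 45 in ER:RAS DMSO (median 0.22, with 49.3% of all genes positive) and 35 of 45 in IMR90 DMSO (median 0.11, with 46.5% of all genes positive) were positive. The 4 comparisons use separate control libraries. In all 4 at once, 29 of 45 genes (64.4%) were positive and 3 (SHMT1, MTHFD1L and HARS1) negative, where 9.23% of the 14010 genes tested in both lines were positive in all 4. Of those 14010 genes, 1380 were negative in all 4. Some of the 29 were positive by little, with smallest values over the 4 states of 0.00084 for YARS1, 0.0040 for NARS1 and 0.017 for SLC3A2. The highest value of MTHFD1L was -0.0014. With DESeq2 size factors the sign changed for 2 of the 45 genes in OIS, 1 after bleomycin, 1 in ER:RAS DMSO and 0 in IMR90 DMSO.

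Only 1 of the 45 genes was called in OIS and 2 after bleomycin, against 0.266% and 0.0474% of all genes tested, and 0 in ER:RAS DMSO and IMR90 DMSO cells, against 0.0140% and 0.00676%. At an unadjusted p under 0.05 the numbers of genes of the 45 were 13, 16, 9 and 8. Over all genes tested they were 735 of 14297, 433 of 14783, 137 of 14297 and 167 of 14783. DESeq2's Wald test called 3 (SLC1A4, CTH and SLC6A9), 3 (CTH, MTHFD2 and SLC6A9), 0 and 0. The share of all genes that DESeq2 called is not given here. Taken 1 shRNA at a time, shRNA 1 and shRNA 2 called 1 gene each in OIS (all genes 0.140% and 0.224%), 0 and 2 after bleomycin (0.00676% and 0.0744%), and 0 in ER:RAS DMSO (0.00699% with each) and IMR90 DMSO (0.00676% with each). When replicate number entered as a block, shRNA 1 called MTHFD2 and shRNA 2 called 4 genes (CTH, MTHFD2, SLC1A4 and SLC6A9) after bleomycin, and shRNA 2 called MTHFD2 in IMR90 DMSO, comparisons in which libraries of the same number deviated together.

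**Figure D3:**
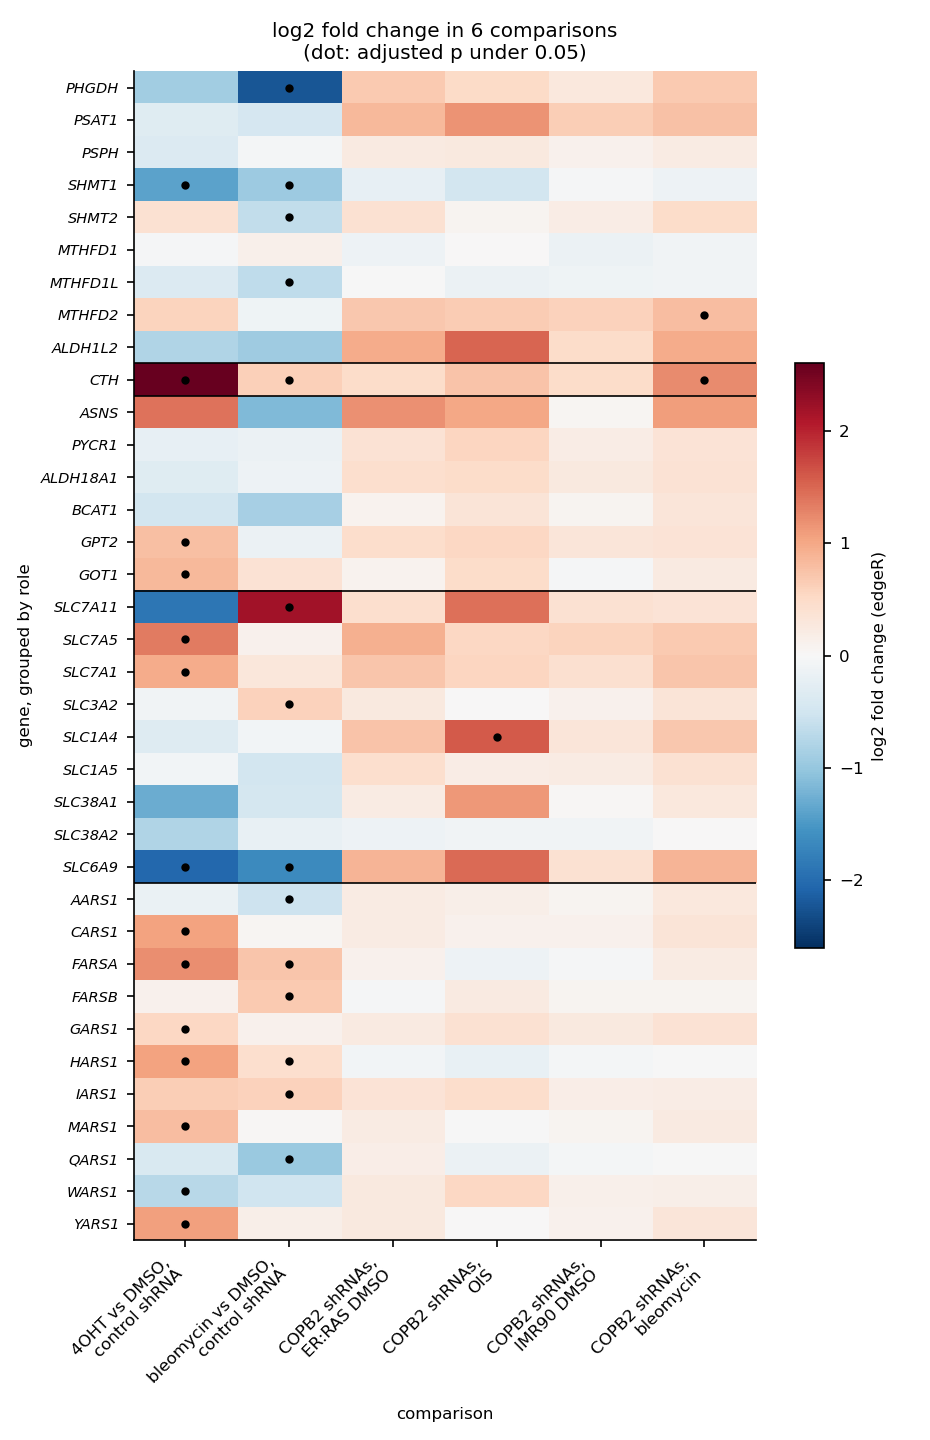
Log2 fold change (colour, blue lower and red higher) of 36 genes (rows, by role: the 25 tested genes that are not synthetases and the 11 synthetases called in a column) in 6 comparisons (columns), with a dot for an edgeR adjusted p under 0.05. The senescence columns hold 14 dots each in both directions, and the 4 knockdown columns hold 3 dots in all, amid mostly red cells.

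SLC1A4, a carrier of alanine, serine and cysteine, was the gene called in OIS. It was at 13.3, 10.5 and 7.98 CPM with the control shRNA, 24.7, 33.1 and 32.7 with shRNA 1 and 25.2, 39.5 and 36.9 with shRNA 2. All 6 COPB2-depleted libraries lay above all 3 controls, and the log2 fold change was 1.60 ± 0.25 (edgeR adjusted p = 0.00676), 1.51 ± 0.27 for shRNA 1 (edgeR adjusted p = 0.0317) and 1.68 ± 0.27 for shRNA 2 (0.0109). The call for both shRNAs ended without control replicate 2 or 3, where the highest adjusted p was 0.0877, and when the fit held these libraries alone (0.0848). The call with shRNA 1 ended in 5 of 6 omissions of a library, with DESeq2 size factors, with the GC and length correction and with low-count genes kept in, and that with shRNA 2 ended in 4 of 6 omissions. After bleomycin SLC1A4 was at 12.7, 15.4, 11.8 and 13.4 CPM with the control shRNA, at 19.6, 19.4, 17.7 and 17.4 with shRNA 1 and at 29.8, 22.5, 30.1 and 17.7 with shRNA 2. These libraries did not overlap either, and the value was 0.70 ± 0.20 (edgeR adjusted p = 1.00). In ER:RAS DMSO it was at 10.8, 16.5 and 10.01 CPM with the control shRNA, at 16.2, 23.7 and 16.9 with shRNA 1 and at 21.97, 21.96 and 26.97 with shRNA 2 (0.75 ± 0.23; not called), where only shRNA 1 replicate 1 lay below the highest control. The smallest value was that of IMR90 DMSO cells (0.31 ± 0.20).

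CTH was called after bleomycin. It was at 3.35, 3.50, 3.33 and 5.03 CPM with the control shRNA, at 7.44, 5.74, 5.78 and 11.6 with shRNA 1 and at 10.1, 9.13, 11.6 and 9.74 with shRNA 2, and the log2 fold change was 1.22 ± 0.20 (edgeR adjusted p = 0.0178), 1.02 ± 0.22 for shRNA 1 (1.00, not called) and 1.42 ± 0.23 for shRNA 2 (0.00896). The highest control library, replicate 4, lay below the lowest depleted library. Leaving out control replicate 1, 2 or 3 ended the call for both shRNAs (highest adjusted p 0.224), as did fitting these libraries alone (0.476). The call with shRNA 2 ended without control replicate 1 or 3 (highest edgeR adjusted p 0.0861) and when only the libraries compared were fitted. In OIS, where CTH was already high, it was at 18.8, 19.3 and 21.03 CPM with the control shRNA, at 30.4, 32.01 and 35.7 with shRNA 1 and at 29.1, 31.9 and 40.2 with shRNA 2. No libraries overlapped there, and the value of 0.74 ± 0.21 was not called (edgeR adjusted p = 0.319), although DESeq2's Wald test called it. In DMSO-treated cells the values were 0.49 ± 0.21 (ER:RAS) and 0.47 ± 0.20 (IMR90), and neither was called.

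MTHFD2 was also called after bleomycin, at the edge of the threshold (0.81 ± 0.15; edgeR adjusted p = 0.0495). It was at 68.1, 80.5, 83.7 and 73.6 CPM with the control shRNA, 121, 105, 145 and 129 with shRNA 1 and 124, 124, 180.3 and 139.6 with shRNA 2, so no libraries overlapped. With shRNA 2 alone it was called too (0.90 ± 0.17; edgeR adjusted p = 0.0410), a call that ended in 8 of 8 omissions of a library, without the filter on low counts, in the fit of all 42 libraries and with these libraries alone, and with shRNA 1 alone it was called only when the replicate number was a block. The call for both shRNAs held in only 1 of the 12 fits that left out a library, that without shRNA 2 replicate 2. It was also lost with DESeq2 size factors (adjusted p = 0.0614), without the filter (0.0899), in the fit of all 42 libraries (0.0907), with these libraries alone (0.194) and with the GC and length correction (0.0822). DESeq2's Wald test (0.000517) and the replicate number as a block (0.00109) called it. Its log2 fold changes in the other 3 states were close to this value: 0.67 ± 0.24 in OIS, 0.70 ± 0.24 in ER:RAS DMSO and 0.61 ± 0.15 in IMR90 DMSO cells, none of them called. MTHFD2 shares 1324 bases with SLC4A5 (1 to 17 counts per library). Some genes called in senescence overlap genes with more counts. SHMT1 shares 184 bases with SMCR8 (359 to 1729 counts) and YARS1 797 with S100PBP (190 to 812). MARS1 shares 65 bases with DDIT3 (328 to 4230 counts) and SLC6A9 46 with CCDC24 (16 to 119). The effect of these overlaps was not tested. The libraries were made with a directional kit, but the strand setting of the counting is not given in the sources used here.

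**Figure D4:**
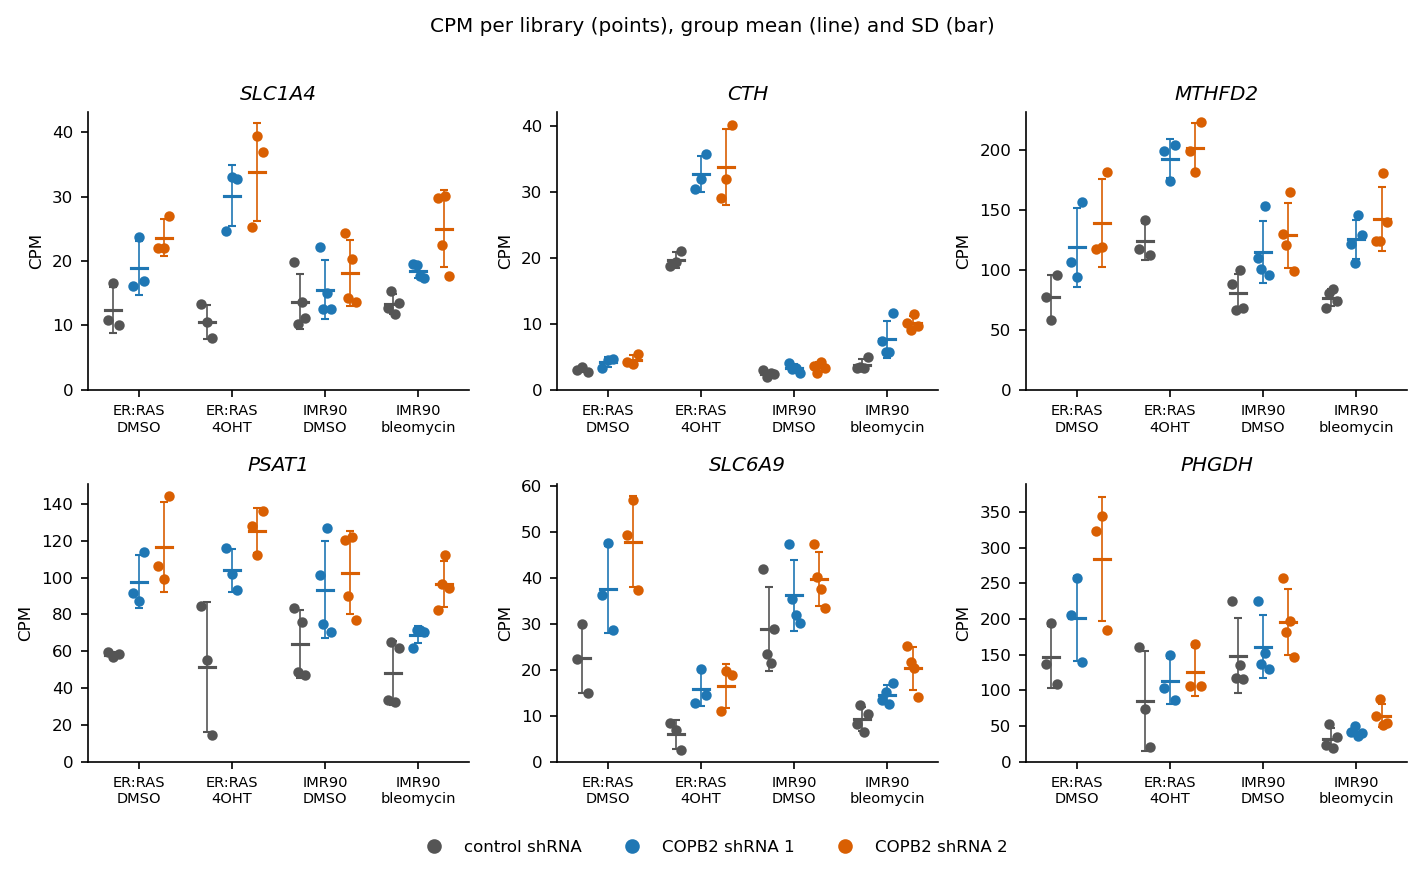
CPM of 6 genes in each of the 42 libraries (points; y axis, from 0) by cell state (x axis) and shRNA (colour), with group means (lines) and SDs (bars). SLC1A4, CTH, MTHFD2 and SLC6A9 have every COPB2-depleted library above every control library in both senescent states.

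Libraries separated completely by COPB2 depletion for some of these genes. In OIS, 14 of the 45 had all 6 depleted libraries above all 3 controls, against 2.66% of all genes. They were PSAT1, MTHFD2, ALDH1L2, CTH, ALDH18A1, GPT2, SLC7A11, SLC7A1, SLC1A4, SLC38A1, SLC6A9, IARS1, TARS1 and WARS1. After bleomycin, 4 of 45 (MTHFD2, CTH, SLC1A4 and SLC6A9) had all 8 depleted libraries above all 4 controls, against 0.189%. In ER:RAS DMSO 5 did (PSAT1, SLC7A5, SLC7A1, GARS1 and IARS1; 0.664% of all genes), and in IMR90 DMSO 0 (0.169%). No gene of the 45 had all depleted libraries below the controls in any state, against 1.38% of all genes in OIS, 0.0474% after bleomycin, 0.399% in ER:RAS DMSO and 0.135% in IMR90 DMSO.

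By role, the transporters had a median of 0.57 in OIS (8 of 9 positive) and the synthetases one of 0.13 (13 of 20 positive). SLC6A9, which is described here because of its values, was at 8.39, 6.87 and 2.41 CPM in OIS with the control shRNA, 12.8, 20.1 and 14.6 with shRNA 1 and 10.9, 19.6 and 18.8 with shRNA 2. Its log2 fold change was 1.47 ± 0.35 (edgeR adjusted p = 0.156) in OIS and 0.89 ± 0.21 (0.319) after bleomycin, neither of them called. DESeq2's Wald test and edgeR with the GC and length correction called both (adjusted p = 0.0151 and 0.00792 in OIS, 0.0282 and 0.0130 after bleomycin). After bleomycin it was at 8.18, 12.3, 6.38 and 10.4 CPM with the control shRNA, at 13.4, 15.1, 12.5 and 17.2 with shRNA 1 and at 25.2, 21.6, 20.3 and 14.1 with shRNA 2. All depleted libraries of SLC6A9 were above all controls in both senescent states. SLC38A1, a glutamine carrier (1.12 ± 0.59), and SLC7A11 (1.43 ± 0.93) had large values with large errors in OIS, and neither was called. SLC7A5 and SLC7A1 gave 0.41 to 0.92 in all 4 states. SLC38A2, another carrier of neutral amino acids, gave -0.08 ± 0.70 in OIS and 0.00 after bleomycin.

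In the serine and folate group the median was 0.26 in OIS, 0.47 after bleomycin, 0.40 in ER:RAS DMSO and 0.19 in IMR90 DMSO. PSAT1, the aminotransferase of serine synthesis, also described because of its values, was at 84.8, 55.3 and 14.4 CPM in OIS with the control shRNA, at 116, 102 and 93.5 with shRNA 1 and at 128, 112 and 136 with shRNA 2 (1.17 ± 0.36; edgeR adjusted p = 0.390). Without the low control replicate 3 the value was 0.72. After bleomycin it gave 0.76 ± 0.21, in ER:RAS DMSO 0.85 ± 0.35 and in IMR90 DMSO 0.63 ± 0.21. PHGDH gave 0.51 ± 0.43 in OIS and 0.68 ± 0.25 after bleomycin, and ALDH1L2, a mitochondrial folate dehydrogenase, 1.51 ± 0.61 and 0.97 ± 0.32. Of the cytosolic folate enzymes, SHMT1 gave -0.49 ± 0.41 and -0.14 ± 0.24, and MTHFD1 0.01 ± 0.15 and -0.10 ± 0.12. None of these was called.

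The 6 genes of asparagine, proline and transamination were all positive in OIS and after bleomycin, with medians of 0.51 and 0.35. ALDH18A1, which makes the precursor of proline, gave 0.48 ± 0.16 in OIS and 0.38 ± 0.13 after bleomycin, PYCR1, which completes proline, 0.55 ± 0.21 and 0.36 ± 0.21, and GPT2 0.53 ± 0.15 and 0.35 ± 0.14. Among the synthetases, GARS1 was positive in all 4 states, from 0.24 ± 0.16 in ER:RAS DMSO to 0.39 ± 0.16 in OIS, and WARS1, which OIS lowered, gave 0.53 ± 0.19 in OIS. HARS1 and FARSA, which senescence raised, gave -0.19 ± 0.23 and -0.13 ± 0.33 in OIS. No synthetase was called in any knockdown comparison.

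**Figure D5:**
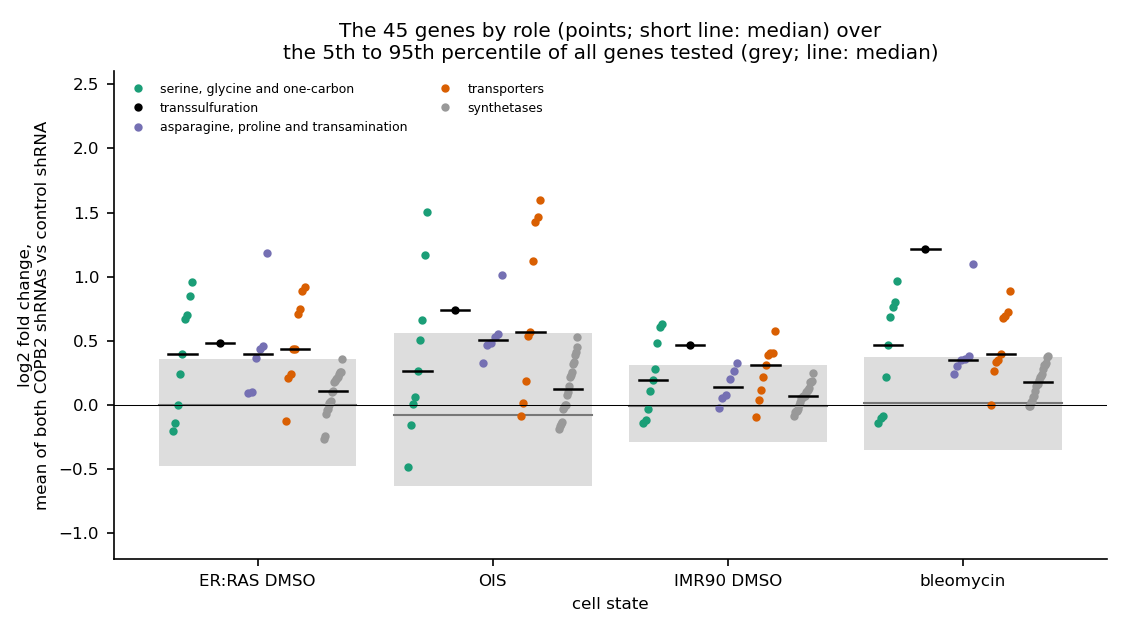
Log2 fold change with COPB2 depletion (y axis, mean of both shRNAs against the control shRNA) of the 45 genes by role (coloured points, short black lines at medians) in the 4 cell states (x axis). Grey boxes span the 5th to 95th percentiles of all genes tested, and most points of the non-synthetase groups lie above the grey median line in each state.

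Whether depletion acted differently in senescent and non-senescent cells was tested for each line as an interaction. None of the 45 genes was called in ER:RAS (0.0140% of all genes) or IMR90 cells (0%, 0 genes in all). At an unadjusted p under 0.05 there was 1 gene of the 45 in each line, SLC1A4 in ER:RAS (0.85 ± 0.32) and CTH in IMR90 (0.75 ± 0.28), and DESeq2's Wald test called 0. Over all genes tested, 295 of 14297 and 154 of 14783 had such a p. Between shRNA 2 and shRNA 1, 0 of the 45 were called in OIS (0% of all genes) and 0 after bleomycin (0%). Of the 45, 0 and 4 had an unadjusted p under 0.05, against 78 of 14297 and 1026 of 14783 over all genes, and DESeq2 called 0. The absence of calls does not show that the effects were alike.

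Related genes outside the 46 served as a comparison. The 17 mitochondrial synthetases had knockdown medians of -0.05 in OIS, 0.00 after bleomycin, -0.05 in ER:RAS DMSO and -0.01 in IMR90 DMSO cells, and 0 were called. Of 31 other amino acid genes (further transporters, glutamine, urea cycle and glycine cleavage genes), 30 were tested, the medians lay between -0.02 and 0.04, and 0 were called. The 6 partners of the synthetases, such as the scaffold AIMP1 and the tRNA exporter XPOT, had medians from -0.20 to 0.17 and 0 calls. Of 20 regulators and targets of the integrated stress response, COPB2 depletion raised 3 in OIS and 1 after bleomycin, with medians of 0.65 and 0.35. In senescence itself, 3 mitochondrial synthetases rose and 2 fell in OIS, and 1 rose and 1 fell after bleomycin. The other amino acid genes gave 7 higher and 6 lower in OIS and 5 and 4 after bleomycin, and of the partners 0 were called in OIS and 1 rose after bleomycin. ATF4 itself was at 208 ± 91.00 CPM in OIS with the control shRNA and 421 ± 50.00 and 494 ± 60.7 with the shRNAs (n = 3 each; 1.14 ± 0.20; edgeR adjusted p = 0.0243). With shRNA 1 alone ATF4 was not called there (1.02 ± 0.23; edgeR adjusted p = 0.152), nor with the mean of both shRNAs after bleomycin (0.68 ± 0.14; edgeR adjusted p = 0.161). With shRNA 2 alone ATF4 was called in OIS (1.25 ± 0.23; edgeR adjusted p = 0.0304) and after bleomycin (0.86 ± 0.16; edgeR adjusted p = 0.0410). With shRNA 1 after bleomycin it gave 0.49 ± 0.16 and was not called.

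Knockdown values were set beside the ATF4 core of the promoter windows shown above. In OIS, 14 of 16 holders were positive, with a median of 0.33, against 13 of 19 without a match and a median of 0.23, and 8 of the 10 genes with no window were positive, with a median of 0.29. After bleomycin it was 15 of 16 with a median of 0.32 against 15 of 19 with a median of 0.16, and 10 of 10 with no window, with a median of 0.33. SLC1A4, a holder, was called in OIS, while CTH and MTHFD2, called after bleomycin, have no match in the window. In the OIS comparison 5 of 16 holders rose and 0 fell, against 4 and 3 of 19 without a match and 2 and 0 of 10 with no window (15.5% of all genes rose and 20.2% fell). After bleomycin 2 holders rose and 2 fell, against 4 and 4 without a match and 1 and 1 with no window (15.4% and 15.8% of all genes). No test was run on these counts.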

How the data were processed

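RNA from 42 libraries of IMR90 and IMR90 ER:RAS cells was sequenced as poly(A) mRNA. The authors deposited raw read counts, with 1 row per gene symbol. The study's methods name a directional library kit, alignment to hg19 by Tophat 2.0.11 set for first-strand libraries and Ensembl annotation, and its reporting summary lists HTSeq. The submitters' processing notes name DRAGEN, STAR 2.7.8a, DESeq2 1.32.0 and hg38. Which of them made the counts, and the strand setting of the counting step, are not given in the sources used here. Promoter and gene positions are from RefSeq GRCh38.p14.

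Genes were filtered with filterByExpr, scaled by TMM and tested with edgeR 4.0.16 (quasi-likelihood F-test, robust; R 4.3.3) in 1 fit per cell line, and in 1 fit of all 42 libraries for the difference between models, with Benjamini-Hochberg adjustment over all genes tested and a threshold of 0.05. SEs are the log2 fold change divided by the root of F. CPM values use TMM-scaled library sizes. No molecular identifiers were used. Alternatives were DESeq2 1.42.0 size factors and Wald test, no filter, a replicate block, other sets of libraries, each library left out, a minimum log2 change of 1 and, chosen after seeing the data, a correction for GC content and transcript length. The ER:RAS fit was also run on simulated counts, drawn independently from the fitted mean of OIS control cells and the fitted dispersions. That simulation held no replicate or GC structure, so it cannot show how the fits handle such structure.

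The genes and lists were chosen with earlier results of these data known. Any of the 46 genes may be named. By rule, values per library are given for the genes called with the mean of both shRNAs in OIS or after bleomycin, and for the 4 called genes with the highest and the 4 with the lowest log2 fold change in each senescence comparison. Knockdown values of PSAT1 and SLC6A9, and PSAT1 and PHGDH in OIS, were added after their values were seen. Libraries with the same replicate number deviated together, with every correlation over 0.1, for both shRNAs after bleomycin (0.375 to 0.782) and for shRNA 2 in IMR90 DMSO (0.178 to 0.727), and for the comparisons of both shRNAs. No other comparison met this.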

Additional observations from a re-analysis of the deposited data

Results flagged for a closer look

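The effect of senescence differed between OIS in ER:RAS cells and bleomycin in IMR90 cells for 9 of 45 genes, by the test of the difference itself in edgeR with Benjamini-Hochberg adjustment. Of all 15299 genes tested, 20.3% were called. On the log2 scale, OIS minus bleomycin was 2.65 for ASNS (adjusted p = 0.0164), 2.04 for CTH (1.09e-05), 1.32 for SLC7A5 (0.00737), 1.08 for CARS1 (0.0157), 1.00 for GPT2 (0.00371), 0.98 for YARS1 (0.0472) and 0.85 for MARS1 (0.0464). It was -0.49 for FARSB (0.0348) and -3.99 for SLC7A11 (0.00894). Without OIS control replicate 1, ASNS, CARS1, MARS1, FARSB and YARS1 lost the call. MARS1, FARSB and YARS1 each lost it in 9 of 14 omissions of a library, and ASNS and CARS1 in that 1.

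Single libraries stood apart from the other 3 of their group in 6 of the 78 sets of 4 libraries looked at, where chance gives about 1 in 20. CTH was at 5.03 CPM in replicate 4 of bleomycin with the control shRNA. In IMR90 DMSO, FARSA was at 102 CPM in replicate 1 with the control shRNA, YARS1 at 198 CPM in replicate 1 with shRNA 2, and SHMT1 at 3.70 CPM in replicate 3 with shRNA 2. WARS1 was at 424 CPM in replicate 1 with shRNA 1 and at 467 CPM in replicate 1 with shRNA 2, again in IMR90 DMSO.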

How the results depend on the processing

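Of 333 recomputed counts of called genes, 265 stayed within 1.5 times the reported count. Of 476 recomputed values of single genes, 81 lost a call, 16 gained one and none was scored as reversed. Signs over the 45 genes did depend on the scaling. With DESeq2 size factors the sign changed for 3 genes in OIS and 1 after bleomycin. For both COPB2 shRNAs it changed for 2 in OIS, 1 after bleomycin, 1 in ER:RAS DMSO and 0 in IMR90 DMSO. For OIS the 14 calls became 3 when only the libraries compared were fitted, 26 with the GC content and length correction, 8 with a minimum log2 change of 1, and 8 to 15 when a library was left out. For bleomycin 14 became 3 with that minimum and 9 to 15 without a library. For the difference between models 9 became 14 with the replicate block, 3 with only the libraries compared, 21 with the GC correction, 5 with the minimum and 5 to 12 without a library. With DESeq2 size factors its 7 higher and 2 lower became 8 and 1. For COPB2 depletion in OIS, 1 became 3 with the replicate block, 2 in one fit of all libraries, 0 with only the libraries compared, 3 with DESeq2, 5 with the GC correction and 0 to 1 without a library. With shRNA 1 in OIS, 1 became 0 with size factors, without the filter and with only the libraries compared, 2 with the GC correction (SLC6A9 and ALDH1L2, not SLC1A4), and 0 to 1 without a library. With shRNA 2 in OIS, 1 became 2 with the replicate block and in one fit of all libraries, 0 with only the libraries compared, 5 with the GC correction and 0 to 1 without a library. After bleomycin, 2 became 1 with size factors, without the filter, in one fit of all libraries and with the minimum, 0 with only the libraries compared, and 0 to 2 without a library. With shRNA 2 after bleomycin, 2 became 4 with the replicate block, 5 with DESeq2, 9 with the GC correction, 1 without the filter, in one fit of all libraries and with the minimum, 0 with only the libraries compared, and 0 to 2 without a library. The replicate block gave 1 call in place of 0 for shRNA 1 after bleomycin, and in IMR90 DMSO for shRNA 2 and for both shRNAs. It gave 21 and 20 in place of 14 for OIS and bleomycin. Control shRNA libraries of the same number in OIS and ER:RAS DMSO had correlations from -0.61 to 0.59, with 1 of 3 over 0.1. Over all ER:RAS groups, 35 of 45 pairs of libraries with the same number were over 0.1. The GC balance of replicate 3 was low in both control groups, -1.08 in OIS and -1.04 in DMSO. Leaving libraries out and fitting fewer of them test fewer samples; the cause of the other shifts was not tested.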
